A study of Rattus norvegicus with 6 samples.

Results

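Small leucine-rich proteoglycans are secreted matrix proteins built on a curved core of leucine-rich repeats, most of which carry chains of chondroitin, dermatan or keratan sulfate. The 7 members described here are Lum (lumican), Dcn (decorin), Bgn (biglycan), Ogn (osteoglycin), Fmod (fibromodulin), Prelp and Aspn (asporin), chosen by gene name, and all 7 were found among 22536 genes. Their RNA was measured by sequencing in tissue of 3 male PDN rats, where PDN stands for painful diabetic neuropathy, a nerve complication of diabetes that brings pain and numbness, and of 3 male control rats. Sensory neuron is the labelled tissue, and the title of the series names the dorsal root ganglion, where the cell bodies of sensory nerves lie next to the spinal cord. The sources used here do not give strain, age, the way diabetes was induced or any treatment of the controls. The design text counts 3 rats per group, so each library is taken as 1 animal.

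These proteins sit on the surface of collagen fibrils and set their width and spacing. Decorin, biglycan, fibromodulin and asporin also bind members of the TGF-beta family, and soluble biglycan can act on the Toll-like receptors TLR2 and TLR4. In nerve and ganglion they are known as products of fibroblast-like cells of the connective tissue sheaths rather than of neurons. By sequence, decorin, biglycan and asporin form one class, lumican, fibromodulin and PRELP another, and osteoglycin belongs to neither.

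The tissue held neurons, glia and connective tissue in every library. The summed FPKM (fragments scaled to transcript length and library size) of 13 neuronal marker genes was 9038 to 10232 in PDN and 9197 to 10560 in controls, and none of these markers was at 0. Reading the constant that links FPKM to the deposited whole numbers as depth gave 51855000 to 62785000 fragments per library. That link held for 54.5% to 54.9% of genes with a whole number over 1000, so this depth is assumed and not reported. Skeletal muscle genes set PDN 3 and control 2 apart, with a summed FPKM over 9 of these genes of 174 in PDN 3 and 536 in control 2. The sum was 33.4 in PDN 1, against 2.15 in PDN 2, 1.92 in control 1 and 2.01 in control 3.

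The windows upstream of Lum and Ogn, the tested members with the largest differences between the groups, and of Fmod, the member with the smallest, are shown as 250 bases before the RefSeq start in build GRCr8 (RefSeq windows for 4 of the 7 members were matched by symbol). Lum lies at chr7:34245456-34245705 on the + strand, Ogn at chr17:15258996-15259245 on the - strand and Fmod at chr13:48045317-48045566 on the + strand. Each runs 5′ to 3′ along the gene, and capitals mark matches on either strand to 5 short promoter motifs whose letters are given after the windows.
Lum: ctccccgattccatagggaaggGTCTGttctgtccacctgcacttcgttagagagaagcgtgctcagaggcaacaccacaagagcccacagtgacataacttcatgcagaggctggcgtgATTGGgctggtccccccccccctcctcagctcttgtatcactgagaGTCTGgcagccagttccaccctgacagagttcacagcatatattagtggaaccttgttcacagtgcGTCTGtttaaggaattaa
Ogn: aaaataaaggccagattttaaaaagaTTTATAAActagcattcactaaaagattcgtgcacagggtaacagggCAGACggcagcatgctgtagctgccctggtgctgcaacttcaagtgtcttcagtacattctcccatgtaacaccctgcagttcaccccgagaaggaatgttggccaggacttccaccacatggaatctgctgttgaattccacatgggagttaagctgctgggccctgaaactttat
Fmod: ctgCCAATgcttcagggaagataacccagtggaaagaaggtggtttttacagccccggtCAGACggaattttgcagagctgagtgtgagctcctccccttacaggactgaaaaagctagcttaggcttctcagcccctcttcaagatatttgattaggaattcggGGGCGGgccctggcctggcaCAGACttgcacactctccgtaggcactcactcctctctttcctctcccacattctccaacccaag

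CAGAC, a short sequence bound by SMAD proteins of the TGF-beta pathway, was found at 3 places in the Lum window, at 1 in the Ogn window and at 2 in the Fmod window. It is common, with 42.9% of 33469 windows of this length holding it. CCAAT, the CCAAT box, occurred once in the Lum window and once in the Fmod window, and 34.0% of all windows hold it. The Ogn window had 2 overlapping matches to the TATA box TATAAA, 1 on each strand, at 224 and 222 bases before the start, and 12.9% of windows hold these letters. GGGCGG, bound by Sp1, was matched once, in the Fmod window (30.5% of windows). TGANTCA, the AP-1 site, was matched in none of the 3 (6.34% of windows). Lum and Ogn thus shared the CAGAC letters with each other and with Fmod, and no set of letters was matched in both Lum and Ogn but not in Fmod. The Aspn window, also found by symbol and not shown, had no match to any of these motifs.

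The 7 members differed far more from each other than between the groups. Decorin RNA made up 65.9% to 76.6% of their summed FPKM in PDN and 68.5% to 73.1% in controls. Over the 6 libraries the mean FPKM was 151 ± 20.8 for Dcn, 25.5 ± 4.70 for Lum and 15.5 ± 1.36 for Bgn (SD, n = 6). It was 9.51 ± 1.85 for Ogn, 5.27 ± 0.335 for Prelp, 2.40 ± 0.210 for Fmod and 0.428 ± 0.176 for Aspn (SD, n = 6). FPKM is scaled to length, so these levels can be set side by side. No neighbours in this order had overlapping ranges, although Lum at its lowest (18.3 FPKM, in PDN 2) was close to Bgn at its highest (18.1 FPKM, in control 1).

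**Figure D1:**
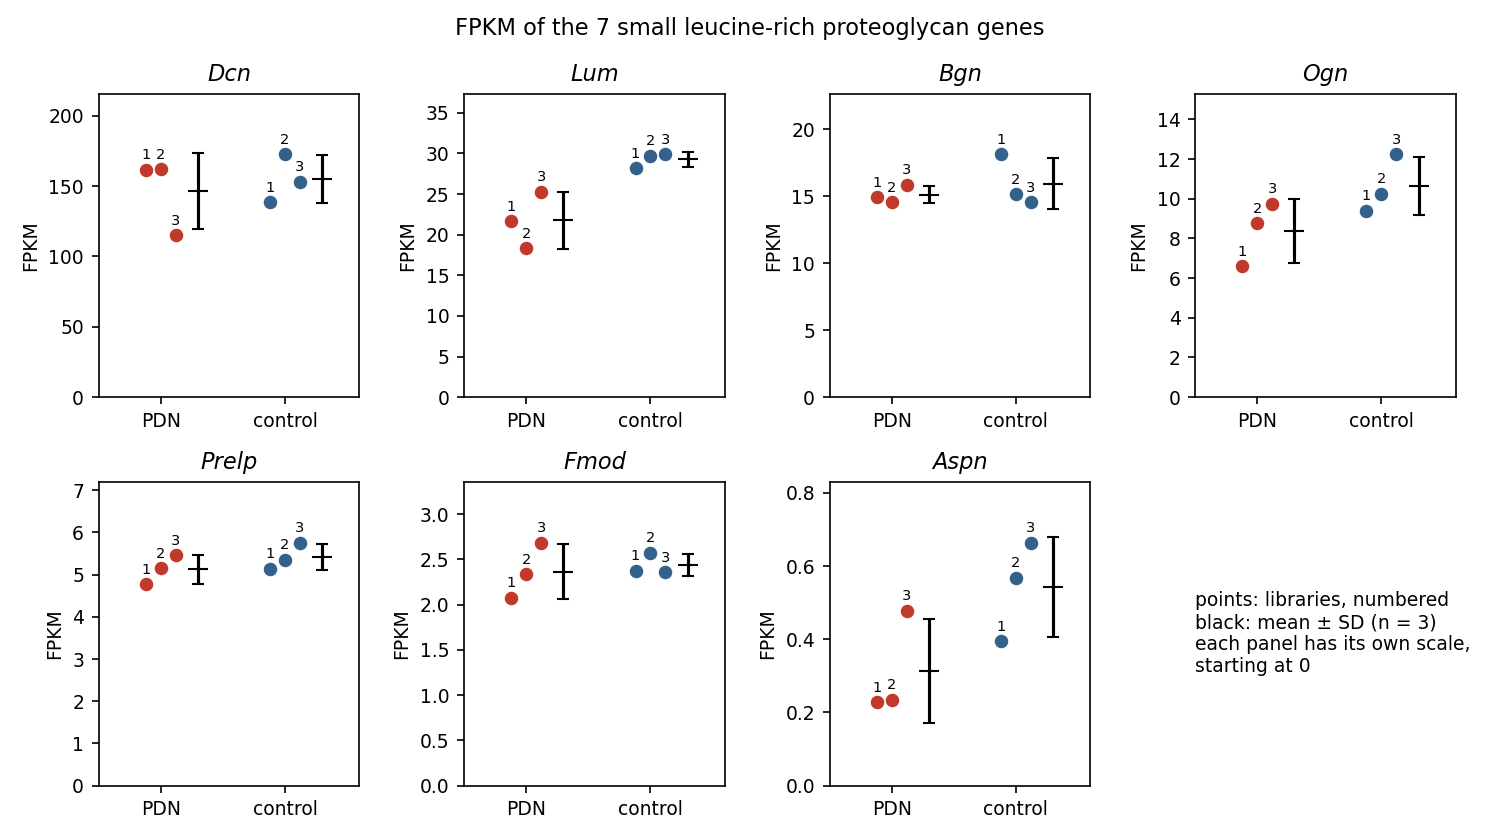
FPKM of each proteoglycan gene (vertical axis, from 0, a separate scale per panel) in 3 PDN and 3 control libraries, as numbered points with the mean and SD beside them. Lum is the 1 gene of the 7 whose 3 PDN points (18.3 to 25.3 FPKM) all lie below the 3 control points (28.2 to 29.9 FPKM).

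The comparison of PDN with control tissue asked which genes differ with the disease. Of the 13282 tested genes, limma called 0 (0%) at an adjusted p of 0.05, so no member was called. Genes under an unadjusted p of 0.05 numbered 384 lower (2.89%) and 243 higher in PDN (1.83%), and 307 lower and 312 higher after median-of-ratios scaling. Of the 7 members, 6 passed the filter of at least 1 FPKM in at least 3 libraries, and Aspn did not. All 6 tested members had an estimate below 0, against 56.6% of all tested genes (48.5% after median-of-ratios scaling, under which all 6 were still below 0). The median of the 6 was -0.08 on the log2(FPKM + 1) scale and that of all tested genes -0.02. One of the 6, Lum, was lower at an unadjusted p under 0.05, against 2.89% of tested genes. Without control 2 and PDN 3 these counts were 5 of 6 below 0 and 2 of 6 at an unadjusted p under 0.05. Among all tested genes the shares were then 54.4% below 0 and 2.54% lower at that p.

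Lumican binds collagen fibrils and carries keratan sulfate in some tissues. Lum (ENSRNOG00000004610, chromosome 7, 38819771 to 38826862 as the file gives it, without a stated build) was at 21.7, 18.3 and 25.3 FPKM in PDN 1, 2 and 3, against 28.2, 29.7 and 29.9 FPKM in controls 1, 2 and 3. The groups did not overlap, which was so, with PDN lower, for 1 of the 6 tested members and for 6.24% of all tested genes. The PDN mean was 74.4% of the control mean, at 21.8 ± 3.48 against 29.3 ± 0.945 FPKM (SD, n = 3 each), and the spread was wider in PDN. The log2 difference was -0.42 ± 0.11 (SE; adjusted p = 0.876 in limma), and its 95% interval ran from -0.683 to -0.162. Its rank by unadjusted p was 93 among the 13282 tested genes. Over 17 other settings the Lum estimate ran from -0.531 (without PDN 3) to -0.309 (without PDN 2), and its adjusted p in limma from 0.401 to 1.0.

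Osteoglycin, also called mimecan, is a small member of the family found in bone and in connective tissue sheaths. Ogn (chromosome 17, 14607442 to 14627937) was at 6.61, 8.78 and 9.76 FPKM in PDN, against 9.40, 10.3 and 12.2 FPKM in controls. The groups overlapped, since PDN 3 lay above control 1. The mean was 8.38 ± 1.61 FPKM in PDN, against 10.6 ± 1.46 FPKM in controls (SD, n = 3 each), a log2 difference of -0.32 ± 0.15 (SE) with adjusted p = 0.999 in limma. The 95% interval was -0.665 to 0.0278. The Ogn estimate was -0.17 without PDN 1 and -0.22 without control 3.

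Asporin is related to decorin and biglycan and restrains TGF-beta and BMP signals in cartilage. Aspn (chromosome 17, 15495790 to 15519282) was at 0.229, 0.235 and 0.478 FPKM in PDN, against 0.394, 0.568 and 0.664 FPKM in controls. PDN 3 lay above control 1, so the groups overlapped here too. All values were under 1 FPKM, so the difference of -0.23 on the log2(FPKM + 1) scale stood outside the filtered test. Without the filter its adjusted p in limma was 0.965. The mean was 0.314 ± 0.142 FPKM in PDN, against 0.542 ± 0.137 FPKM in controls (SD, n = 3 each). Aspn and Ogn put the 6 libraries in the same order, from PDN 1 at the bottom to control 3 at the top.

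Decorin binds collagen near a fixed band of the fibril and can hold TGF-beta in the matrix. Dcn (chromosome 7, 38742051 to 38782323), the neighbour of Lum, was at 162, 162 and 115 FPKM in PDN, against 139, 173 and 153 FPKM in controls. The groups overlapped, with the lowest value of all in PDN 3 and the highest in control 2. The means were 146 ± 27.0 FPKM in PDN, against 155 ± 17.1 FPKM in controls (SD, n = 3 each), a log2 difference of -0.09 ± 0.15 (SE) and adjusted p = 0.999 in limma. The interval of -0.440 to 0.253 allows a difference in either direction. The sign turned without PDN 3, at 0.07, and without control 2 and PDN 3 together, at 0.15.

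Biglycan is the near relative of decorin and is known to act on TLR2 and TLR4. Bgn (chromosome X, 157319046 to 157331204) was at 14.9, 14.6 and 15.8 FPKM in PDN, against 18.1, 15.1 and 14.5 FPKM in controls. Control 3 held the lowest value and control 1 the highest, so the PDN values lay inside the control range. The log2 difference was -0.07 ± 0.09 (SE; adjusted p = 0.999 in limma), the interval reaching from -0.284 to 0.151. Without control 1 it was 0.02.

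Fibromodulin competes with lumican for collagen and steers the early steps of fibril assembly. Fmod (chromosome 13, 50873605 to 50885563) was at 2.08, 2.33 and 2.68 FPKM in PDN, against 2.37, 2.57 and 2.36 FPKM in controls. PDN held both the lowest and the highest value. The log2 difference was -0.03 ± 0.10 (SE), with an interval of -0.268 to 0.202, adjusted p = 0.999 in limma, and 0.03 without PDN 1.

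PRELP has an N-terminal stretch rich in proline and arginine that binds heparan sulfate, and links basement membranes to collagen. Prelp (chromosome 13, 50749514 to 50761355) was at 4.77, 5.16 and 5.46 FPKM in PDN, against 5.14, 5.36 and 5.75 FPKM in controls. It varied least of the 7 members, with an SD of 6.35% of its mean over the 6 libraries, against 41.2% for Aspn and 19.4% for Ogn. Its log2 difference was -0.07 ± 0.08 (SE; adjusted p = 0.999 in limma), the interval reaching from -0.263 to 0.130. It was -0.02 without PDN 1, -0.03 without control 3 and -0.11 without PDN 3.

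**Figure D2:**
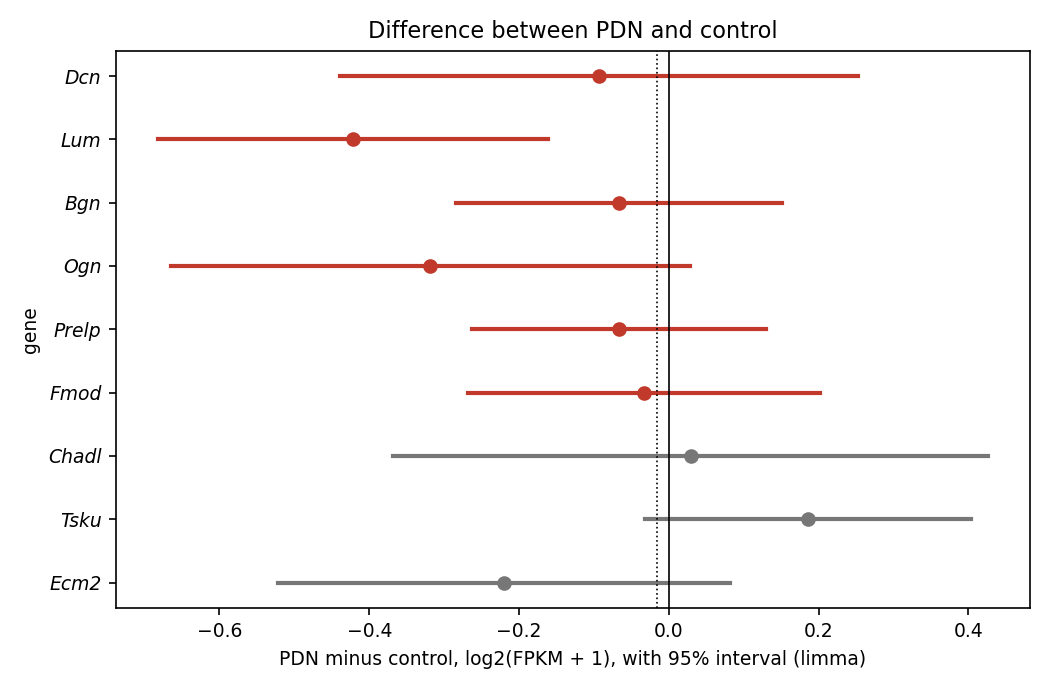
Difference between PDN and control on the log2(FPKM + 1) scale (horizontal axis) with 95% intervals from limma, for the 6 tested members (red) and 3 further family genes (grey). The solid line marks 0 and the dotted line the median of all tested genes, -0.02. The Lum interval, -0.683 to -0.162, is the one that does not reach 0, and its adjusted p was 0.876.

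The library order differed from member to member. PDN 1 was the lowest library for 4 of the 7 members (Ogn, Fmod, Prelp and Aspn), PDN 2 for Lum, PDN 3 for Dcn and control 3 for Bgn. Control 3 was the highest for 4 (Lum, Ogn, Prelp and Aspn). Within a library, Lum FPKM divided by Dcn FPKM was 0.134, 0.113 and 0.220 in PDN 1, 2 and 3, against 0.203, 0.172 and 0.195 in controls. In PDN 1 and 2 this ratio was below every control, and in PDN 3, where Dcn was low, it was above every control. Fmod divided by Lum was 0.0958, 0.127 and 0.106 in PDN, against 0.0843, 0.0866 and 0.0788 in controls, with no overlap. These ratios were chosen after the values were seen and were not tested.

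The family genes lie in clusters, by the loci in the file. On chromosome 7, Dcn is followed after 37.4 kb by Lum, then by Kera and Epyc, the genes of keratocan and epiphycan. Kera reached at most 0.0175 FPKM and Epyc 0.110 FPKM in PDN, and in controls they reached at most 0 and 0.0155 FPKM. On chromosome 13, Optc (opticin), with at most 0.0858 FPKM in PDN and 0.107 in controls, lies 3.16 kb from Prelp, and Prelp 112 kb from Fmod. On chromosome 17, Ogn lies 7.25 kb from Omd, the gene of osteomodulin, which stood at 0.490, 0.936 and 0 FPKM in PDN against 0.726, 0.571 and 0.676 FPKM in controls. The same chromosome holds Aspn, 858 kb beyond Omd by these loci and 14.7 kb from Ecm2, which encodes a related matrix protein. Ecm2 was at 0.841, 1.35 and 0.835 FPKM in PDN, against 1.44, 1.22 and 1.31 FPKM in controls, with adjusted p = 0.999 in limma. Taken by chromosome, family genes thus stood at very different levels, although Aspn and Ecm2 were both low. The family genes beside the members were at 1.44 FPKM or less.

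Of the other family genes, Podn was not analysed here, and 7 of the 10 found stayed under 1 FPKM in every library. Chadl, which encodes a chondroadherin-like protein, was the most abundant, at 13.0, 9.23 and 15.4 FPKM in PDN against 12.1, 13.3 and 10.8 FPKM in controls. Tsku (tsukushi) was at 2.0, 1.89 and 1.92 FPKM in PDN against 1.65, 1.68 and 1.42 FPKM in controls, an estimate of 0.19 in the opposite direction to the members (adjusted p = 0.999 in limma). Its groups did not overlap, with PDN higher, which was so for 3.69% of tested genes. Chad (0.498 to 0.748 against 0.317 to 0.470 FPKM) and Nyx (0.282 to 0.412 against 0.200 to 0.225 FPKM), which encode chondroadherin and nyctalopin, were also higher in all 3 PDN libraries, at levels below the filter. Podnl1 did not exceed 0.0691 FPKM in PDN and 0.129 FPKM in controls.

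Collagens form the fibrils these proteoglycans coat. The counts of this and the following lists stand beside 56.6% of all tested genes below 0 and 2.89% lower at an unadjusted p under 0.05 (48.5% and 2.31% after median-of-ratios scaling). Among 10 tested fibrillar collagen genes, 9 were below 0 with a median of -0.13, and 3 were lower at an unadjusted p under 0.05. That median was -0.03 without PDN 2, -0.31 without PDN 3, -0.20 without control 3 and -0.27 without control 2 and PDN 3 together. Col3a1, the chain of type III collagen, was at 38.1, 36.1 and 52.9 FPKM in PDN against 58.6, 60.8 and 58.3 FPKM in controls, with PDN 3 nearest to the controls, as for Lum. Its log2 difference was -0.49 ± 0.14 (SE; adjusted p = 0.923 in limma). The type V chains that start fibrils stood at 10.5 ± 1.52 against 13.2 ± 0.287 FPKM (Col5a2) and 12.7 ± 1.54 against 15.1 ± 1.01 FPKM (Col5a1) (SD, n = 3 each). The type I chains, the most abundant of the list, were picked after their values were seen. Col1a1 was at 62.9 ± 16.4 against 71.2 ± 2.30 FPKM and Col1a2 at 63.3 ± 16.8 against 65.1 ± 4.68 FPKM (SD, n = 3 each). Both overlapped between the groups, with PDN 3 above every control. The summed FPKM of the 11 fibrillar collagen genes was 194 to 300 in PDN and 264 to 286 in controls, with both extremes in PDN.

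Partners of the fibrils had 13 of 14 tested genes below 0 and a median of -0.24, with 6 lower at an unadjusted p under 0.05 (all tested genes, 56.6% and 2.89%). Tnc, the gene of the matrix protein tenascin C, was at 10.5, 10.1 and 16.0 FPKM in PDN against 20.4, 20.1 and 17.6 FPKM in controls (adjusted p = 0.811 in limma). Col6a2, a chain of the beaded collagen VI to which decorin and biglycan bind, was at 9.09, 9.24 and 8.54 FPKM in PDN against 12.5, 11.7 and 11.1 FPKM in controls (adjusted p = 0.707 in limma). Eln (elastin) was at 0.863 ± 0.440 FPKM in PDN, against 1.59 ± 0.0942 FPKM in controls (SD, n = 3 each). None of the partner genes passed the threshold over all genes.

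**Figure D3:**
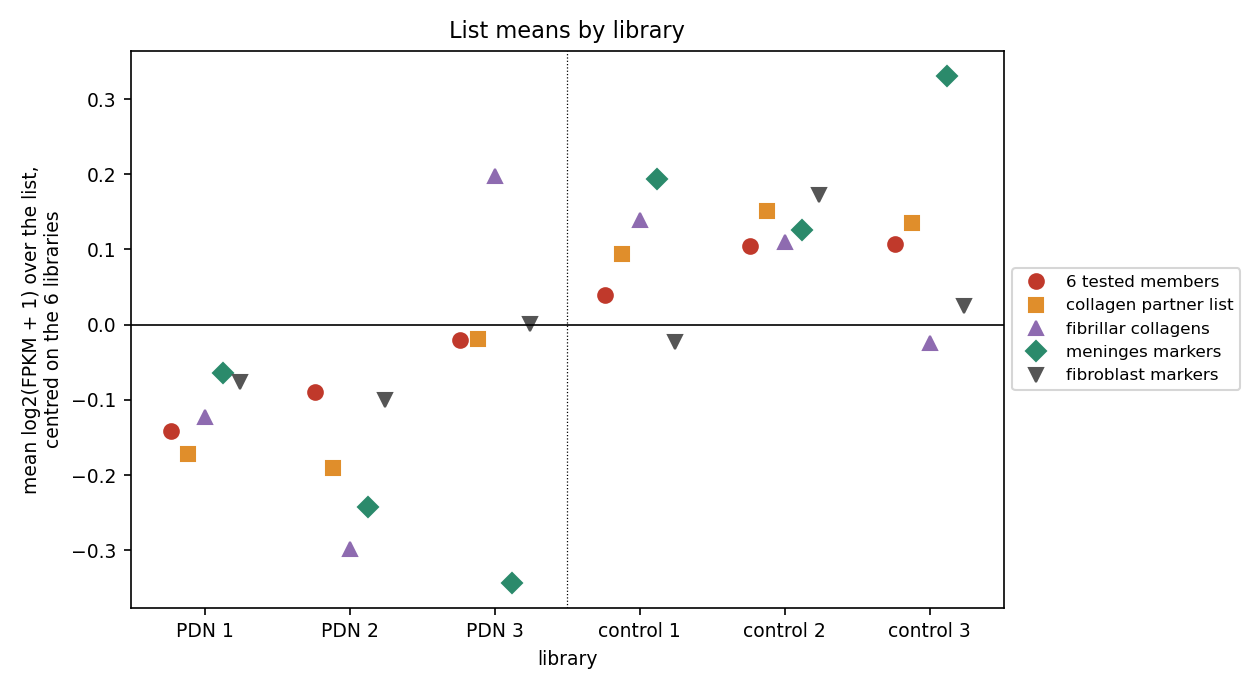
Mean log2(FPKM + 1) of 5 gene lists in each library (horizontal axis, PDN left of the dotted line), centred on the 6 libraries. The 6 tested members lie at -0.141 to -0.0199 in PDN and 0.0388 to 0.107 in controls. The collagen partner list (-0.191 to -0.0193 against 0.0937 to 0.152) and the meninges markers (-0.343 to -0.0638 against 0.126 to 0.331) also do not overlap between the groups. Of the lists not drawn, the TGF-beta system (-0.0820 to -0.0382 against 0.0222 to 0.0922) does not overlap either. The same holds for the receptors (-0.220 to 0.0237 against 0.0300 to 0.112) and the macrophage markers (-0.339 to -0.0925 against -0.0629 to 0.305). The other lists not drawn overlap. Of single tested genes, 6.24% had PDN wholly below control. The fibroblast markers overlap, and so do the fibrillar collagens, which reach their highest value, 0.197, in PDN 3.

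Of the enzymes that build the sugar chains, 14 of 27 tested genes were below 0, with a median of -0.001. Without control 2 and PDN 3 they numbered 18 of 27, with a median of -0.04. The median was 0.02 after median-of-ratios and after upper-quartile scaling, and ran from -0.0261 to 0.00673 when single libraries were removed. B3galt6, which adds a galactose of the linker between protein and chain, was at 5.30, 5.68 and 6.40 FPKM in PDN against 4.11, 4.98 and 5.10 FPKM in controls. Chst5, a sulfotransferase that acts on N-acetylglucosamine, was at 3.88, 3.07 and 2.71 FPKM in PDN against 2.71, 2.48 and 2.42 FPKM in controls. Chpf, a polymerising factor for chondroitin, was at 47.0 ± 2.73 against 42.6 ± 3.23 FPKM (SD, n = 3 each). The adjusted p of all 3 in limma was 0.999.

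Of the TGF-beta system, whose ligands several members bind, 13 of 16 tested genes were below 0, with a median of -0.12. Tgfb3 was at 5.50, 5.12 and 6.20 FPKM in PDN against 8.48, 7.01 and 7.39 FPKM in controls (adjusted p = 0.858 in limma). Ltbp1, which anchors latent TGF-beta in the matrix, was at 2.95 ± 0.272 against 3.95 ± 0.350 FPKM. Ccn2, a common target of the pathway, went the other way, at 2.92 ± 0.433 against 2.01 ± 0.292 FPKM (SD, n = 3 each; adjusted p = 0.999 in limma).

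Among receptors reported to bind these proteoglycans, 9 of 11 tested genes were below 0, with a median of -0.11 and 0 at an unadjusted p under 0.05 in limma. That median was -0.03 without PDN 1, -0.06 without control 2, -0.16 without PDN 2 and -0.18 without PDN 3. Tlr2, a receptor for biglycan, was at 0.520, 1.03 and 1.28 FPKM in PDN against 1.33, 1.24 and 1.53 FPKM in controls. Tlr4, the receptor the series title names, was at 4.30, 5.68 and 4.999 FPKM in PDN against 4.91, 5.45 and 5.58 FPKM in controls. Both genes overlapped between the groups. Egfr, which decorin binds, was at 2.17 ± 0.216 against 2.69 ± 0.182 FPKM and Kdr, a receptor for VEGF, at 6.08 ± 1.68 against 7.94 ± 1.10 FPKM (SD, n = 3 each). The adjusted p of these 4 genes in limma was 0.999.

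Proteases and their inhibitors had 9 of 12 tested genes below 0 and a median of -0.22, which was -0.10 without PDN 2. Adamts5, which cleaves aggrecan and can cleave small proteoglycans, was at 11.3, 14.0 and 18.1 FPKM in PDN against 20.4, 21.1 and 18.4 FPKM in controls. Adamts1, of the same family, was at 5.48 ± 0.789 against 6.59 ± 0.298 FPKM. Tll1, a relative of the enzyme that removes the propeptide of biglycan, was at 5.69 ± 0.559 against 6.60 ± 0.182 FPKM (SD, n = 3 each). Larger and membrane-bound proteoglycans had 12 of 18 below 0 and a median of -0.04, with 5 lower at an unadjusted p under 0.05. That median was -0.07 without PDN 1, -0.007 without control 1 and -0.02 without control 2. Bcan, the gene of brevican, was at 21.5, 19.6 and 19.96 FPKM in PDN against 25.95, 32.9 and 28.1 FPKM in controls (adjusted p = 0.682 in limma). The syndecan genes Sdc4 (27.0 ± 1.37 against 33.0 ± 1.72 FPKM) and Sdc3 (60.3 ± 3.68 against 69.7 ± 1.18 FPKM) had the next smallest p. None of these genes passed the threshold over all genes, and each was named for its small p, so their separation adds no support.

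Markers of the cells that could supply proteoglycan RNA were read beside these values. In bulk tissue, fewer cells of a type and less RNA per cell cannot be told apart. Fibroblast markers had 7 of 10 tested genes below 0 and a median of -0.18, with 3 lower at an unadjusted p under 0.05. Their summed FPKM over 15 genes was 300.0 to 349 in PDN and 299 to 347 in controls, and none was at 0 throughout. This list shares 3 genes with the fibrillar collagens. Pdgfra, a defining gene of fibroblasts, was at 6.52, 6.62 and 5.49 FPKM in PDN against 6.34, 7.46 and 7.07 FPKM in controls. Gsn, a gene of the same list, went the other way at 150, 127 and 86.5 FPKM in PDN against 90.8, 97.0 and 65.6 FPKM in controls.

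Meningeal markers were read for the sheaths around the ganglion. Their list shares Tagln with the pericyte and smooth muscle list. All 9 tested genes of the meningeal list had an estimate below 0, with a median of -0.32, and 5 were lower at an unadjusted p under 0.05. Among all tested genes these shares were 56.6% and 2.89%. Their summed FPKM over 10 genes was 145 to 277 in PDN and 272 to 365 in controls, and none was at 0. Most of that sum was Ptgds, a prostaglandin synthase of the meninges that is also made by glia, at 241, 105 and 106 FPKM in PDN against 277, 223 and 315 FPKM in controls. Slc13a4, a sulfate carrier, was at 4.25, 3.95 and 3.31 FPKM in PDN against 5.35, 5.43 and 5.72 FPKM in controls. Without control 2 and PDN 3, all 9 were still below 0. These 2 genes were picked after their values were seen, and the part of the meninges in the Lum and Ogn values was not tested.

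Cartilage, tendon and bone, tissues rich in these proteoglycans, had 3 of 8 tested markers below 0 and a median of 0.04, with summed FPKM of 55.0 to 83.9 in PDN and 59.9 to 78.8 in controls. Perineurial markers had 2 of 6 tested genes below 0, and 0 of 6 without control 2 and PDN 3. Macrophage markers had 8 of 9 below 0, with summed FPKM of 33.5 to 44.8 in PDN and 43.8 to 58.0 in controls. Endothelial markers had 8 of 9 below 0, and pericyte and smooth muscle markers 8 of 9. Lower at an unadjusted p under 0.05 were 4 macrophage, 2 endothelial and 2 pericyte and smooth muscle markers (all tested genes, 2.89%). In addition, 1 endothelial marker was higher at that p. Red blood cell genes had 4 of 4 below 0, with a median of -0.82 and 2 lower at an unadjusted p under 0.05. Skeletal muscle genes had 5 of 8 below 0, and 0 of 8 without control 2 and PDN 3. The highest muscle sum left in that fit was 33.4 FPKM, in PDN 1. Satellite glia had 6 of 9, Schwann cells 5 of 10 and neurons 7 of 13 markers below 0. At an unadjusted p under 0.05, 1 satellite glia marker was lower. In the Schwann cell, neuron, skeletal muscle, perineurial and cartilage, tendon and bone lists 0 were lower. The part of these cells in the proteoglycan values was not tested.

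The genes whose profile was most like the mean of the 6 tested members over the 6 libraries were sought among 11885 named genes. Likeness was the root mean square difference of the centred log2(FPKM + 1) values. Kptn came first, with a difference of 0.0116, followed by Kntc1 (0.0223), Gclm (0.0223), Mthfd1 (0.0247) and Fermt2 (0.0266). The members themselves lay further from their own mean, from 0.0583 for Prelp and 0.0828 for Fmod to 0.170 for Lum and 0.212 for Dcn. The mean profile was thus not that of any 1 member.

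**Figure D4:**
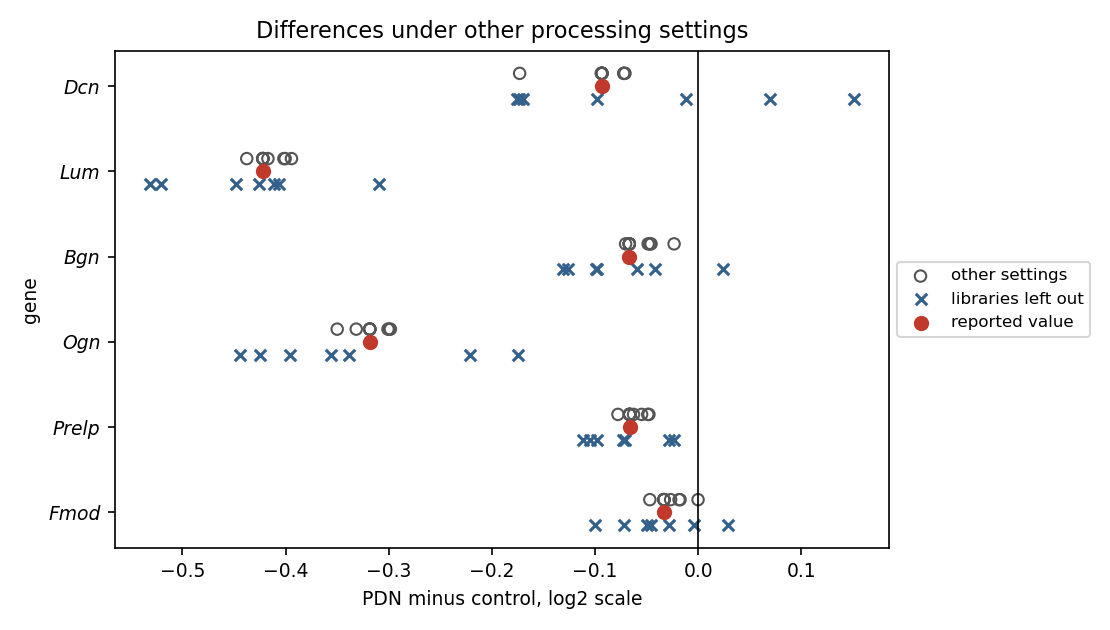
Difference between PDN and control on a log2 scale (horizontal axis) for the 6 tested members, as reported (filled red points), with libraries left out (blue crosses) and under other settings (open circles). Every Lum, Ogn and Prelp value lies below 0, while Dcn runs from -0.18 to 0.15.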

How the data were processed

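Strand-specific lncRNA-type libraries of 3 PDN and 3 control rats were sequenced, per the labels' protocols. The authors deposited 1 table of FPKM per gene, and a table named for read counts. The whole numbers of that deposited table were treated as a score and not as counts. For 54.5% to 54.9% of genes over 1000, they equal (relative tolerance 0.001) FPKM times genomic span times 1 constant per library, and 0% lie above that. No interval for counting error was possible. The sources used here do not name the aligner, quantifier, annotation or build.

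The test, limma 3.58.1 (R 4.3.3) on log2(FPKM + 1) with an intensity trend, took group as its sole term and covered the 13282 genes that reached 1 FPKM in 3 or more libraries. P-values were adjusted over these genes by Benjamini-Hochberg. Log2 differences are PDN minus control and understate changes of low genes. The test was tried on simulated data. The members and gene lists were chosen with earlier results of these data known. Named genes are the 7 members, other family genes, the 3 smallest p in each of 7 matrix lists, Tlr2, Tlr4 and the 5 most similar profiles, with others said to be chosen later or given as cell markers. A planned comparison of protein sequences was not run.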

Additional observations from a re-analysis of the deposited data

How the results depend on the processing

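The count of 0 genes past the adjusted threshold was 1 without the filter, with robust empirical Bayes and without the intensity trend, 2 in the whole-number table and 9 without control 2 and PDN 3, and 0 to 6 over the fits that left out 1 library each. No member was among those genes. Members lower at an unadjusted p under 0.05 numbered 1, and 1 to 2 over those fits. They numbered 2 (Lum and Ogn) without PDN 3, without control 1, without control 2 and PDN 3 together, and with the replicate block. The share of all tested genes lower at that p was 3.93%, 3.4%, 2.54% and 3.92% in these settings, in the same order. It was 2.89% in the main fit. The deviations of same-numbered libraries had correlations of 0.171, -0.120 and -0.0865, and the highest of any pair, 0.269, was between PDN 3 and control 2. With 3 libraries per group these values cannot tell whether animals were paired. The block result is thus not read as a pairing of animals. Left-out libraries turned the sign of Dcn (-0.18 to 0.0695), Bgn (-0.13 to 0.0238), Fmod (-0.10 to 0.0291), Tlr4 (-0.16 to 0.00595) and Chadl (-0.12 to 0.22), and without control 2 and PDN 3 together Dcn was at 0.15 and Chadl at -0.0552. The sign of Lum, Ogn and Prelp held in all 17 settings. None of the 6 tested members passed the adjusted threshold in any of them, and the cause of these shifts was not tested.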
